A study of Mus musculus with 21 samples.

Results

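Interferon-stimulated genes were followed in bulk RNA from the brains of GA-Camk2a mice and controls. The set was chosen by name, as the rows of the count table whose mouse gene symbol was on a list of 47 genes known to be induced by type I interferon, and all 47 were found among the 64361 genes of the table. The list was drawn up with earlier results of these data known. GA-Camk2a mice express a GFP-tagged poly-GA protein, one of the dipeptide repeat proteins translated from the C9orf72 repeat expansion of ALS, from a transgene with a floxed stop cassette that Camk2a-Cre, a driver of excitatory neurons, removes. The mice were kept on a C57BL/6J background and were 30 to 40 weeks old. The control mice are labelled as controls, and the labels do not say whether they carried the Cre or the transgene without Cre. RNA was measured with prime-seq, a bulk protocol that primes on poly(A) tails and barcodes each sample early, in 5 control and 6 GA-Camk2a libraries of cortex and in 4 control and 6 GA-Camk2a libraries of hippocampus. The 21 libraries came from 11 mice, and 10 of the mice gave both tissues.

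Type I interferons bind the IFNAR1 and IFNAR2 receptor chains, which activate the kinases JAK1 and TYK2. These phosphorylate STAT2, which acts with IRF9 in a transcription factor complex that binds a DNA element called ISRE in front of its target genes. The targets include the factors of the pathway itself, sensors of foreign nucleic acid, proteins that block translation or virus entry, and GTPases that attack intracellular pathogens. In the brain, microglia, astrocytes and neurons can all respond to type I interferon.

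Each library held between 1048201 and 5888102 counts, with a median of 1975173, and an exact two-sided permutation test of depth between the genotypes gave p = 0.762 in cortex and 0.114 in hippocampus, where controls averaged 3777209 and GA-Camk2a mice 2179734 counts. Levels are given as CPM, the count of a gene divided by the total of its library and multiplied by 1000000. The 5 hippocampus markers were all higher in hippocampus than in cortex of the controls. The row for GFP held between 0 and 4 counts per library, with 2 counts each in control mice 37 and 38, so it did not check the transgene. Some hippocampal libraries stood apart: Rorb was at 1455, 4414 and 5303 CPM in control mouse 11 and GA-Camk2a mice 30 and 16, against at most 165 CPM in the others, and the neutrophil gene S100a8 had 405 counts in mouse 41 and at most 16 in the others. With the 3 hippocampal libraries of high Rorb left out, a choice made after the data were seen, 22 of 34 members tested were called higher in GA-Camk2a hippocampus, against 3.75% of the 13413 genes tested in that fit. In bulk RNA, fewer cells of a type and less RNA per cell cannot be told apart, and neither can more cells and more RNA per cell.

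The stretches of promoter that hold the ISRE are shown for 7 members, 6 of them called in the genotype comparison and Stat2, which was not. A RefSeq promoter window of 300 bases, 250 before and 50 after a transcription start in the build GRCm38.p6, was found for 38 of the 47 members. The ISRE was searched as the letters GAAANNGAAA on both strands, and 18 of the 38 members (47.4%) had it in at least 1 window, against 3.99% of the 27025 gene symbols of that table. The element called GAS, which serves responses to interferon gamma, searched as TTCNNNGAA, which reads the same on both strands, was in 12 of 38 members (31.6%), against 9.55% of all symbols. The letters of the 2 motifs can overlap in a window, and a match describes the sequence without showing that a factor binds there. The stretches run 5′ to 3′ on the strand of the gene, with the ISRE matches in capitals, and these 7 all lie before the start site. Some matches of other members lie after it, among them those of Ifitm3 (positions 3 and 20), Eif2ak2 (19) and Ifih1 (33). The stretch of Bst2 also holds a GAS match, which overlaps its first ISRE match and is not marked. Isg15 lies at chr4:156200850-156200921 on the minus strand, Ifit1 at chr19:34640760-34640838 (plus), Ifit3 at chr19:34583348-34583441 (plus), Gbp2 at chr3:142620579-142620638 (plus), Bst2 at chr8:71537562-71537627 (minus), Rsad2 at chr12:26456538-26456597 (minus) and Stat2 at chr10:128270251-128270310 (plus).
Isg15: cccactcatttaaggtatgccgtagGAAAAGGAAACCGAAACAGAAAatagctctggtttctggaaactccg
Ifit1: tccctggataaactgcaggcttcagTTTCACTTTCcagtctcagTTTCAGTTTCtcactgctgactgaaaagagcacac
Ifit3: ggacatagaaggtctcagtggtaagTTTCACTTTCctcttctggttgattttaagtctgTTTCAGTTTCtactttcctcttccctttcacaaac
Gbp2: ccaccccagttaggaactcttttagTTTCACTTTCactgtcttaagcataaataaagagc
Bst2: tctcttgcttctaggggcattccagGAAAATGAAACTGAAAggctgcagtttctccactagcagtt
Rsad2: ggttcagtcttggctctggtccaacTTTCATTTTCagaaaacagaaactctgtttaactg
Stat2: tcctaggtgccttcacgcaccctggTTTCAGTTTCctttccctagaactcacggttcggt
Isg15 has 3 overlapping matches, Bst2 has 2 that overlap, Ifit1 and Ifit3 have 2 apart from each other, and Gbp2, Rsad2 and Stat2 have 1 each. The ISRE was present in 14 of the 27 members with a window that were called in at least 1 tissue and in 3 of the 9 that were tested and called in neither. The windows of Irf7 and Oasl2, which are among the 6 highest fold changes of a tissue, held neither motif, which says only that these letters are not in this window.

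To ask how the interferon-stimulated genes differ between the genotypes, GA-Camk2a mice were compared with controls within each tissue by edgeR's quasi-likelihood test over all genes, with the batch given in the labels as a term and Benjamini-Hochberg adjustment. A gene was tested in cortex if it reached 5.06 CPM in at least 5 libraries and in hippocampus if it reached 3.94 CPM in at least 4. In cortex, 29 of the 47 members passed the filter on low counts and 21 of these were higher in GA-Camk2a mice at an adjusted p under 0.05. None was called lower. Of all 13058 genes tested in cortex, 6.35% were called higher. In hippocampus, 41 members were tested, 30 were higher and 0 were lower, against 4.97% of 14884 genes called higher. The median log2 fold change of the members tested was 1.28 in cortex and 1.45 in hippocampus, beside medians of -0.00503 and 0.0162 over all genes tested.

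Because a gene could pass the filter through the GA-Camk2a libraries alone, the filter favoured members that were high there. The list of members was also chosen with earlier results of these data known. For both reasons the counts, shares and medians of the members are a description. In cortex 10 of the 29 members would have passed on the control libraries alone, and 6 of them were called higher. Another 17 passed on GA-Camk2a libraries alone, with 15 called, and Trim25 and Dtx3l needed libraries of both groups. In hippocampus 16 of 41 would have passed on controls alone, with 11 called, 24 passed on GA-Camk2a libraries alone, with 19 called, and Eif2ak2 needed both groups. Every GA-Camk2a library was above every control library for 19 of 29 members in cortex, against 3.5% of all genes tested there. The same held for 22 of 41 members in hippocampus, against 5.6% of all genes. Of 12 microglia markers, 9 were called higher in cortex and 7 in hippocampus, and their summed level was 441 to 496 CPM in cortex controls and 1087 to 1612 in GA-Camk2a cortex, and 388 to 481 and 748 to 1207 CPM in hippocampus. The part of microglia in the result was not tested.

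**Figure D1:**
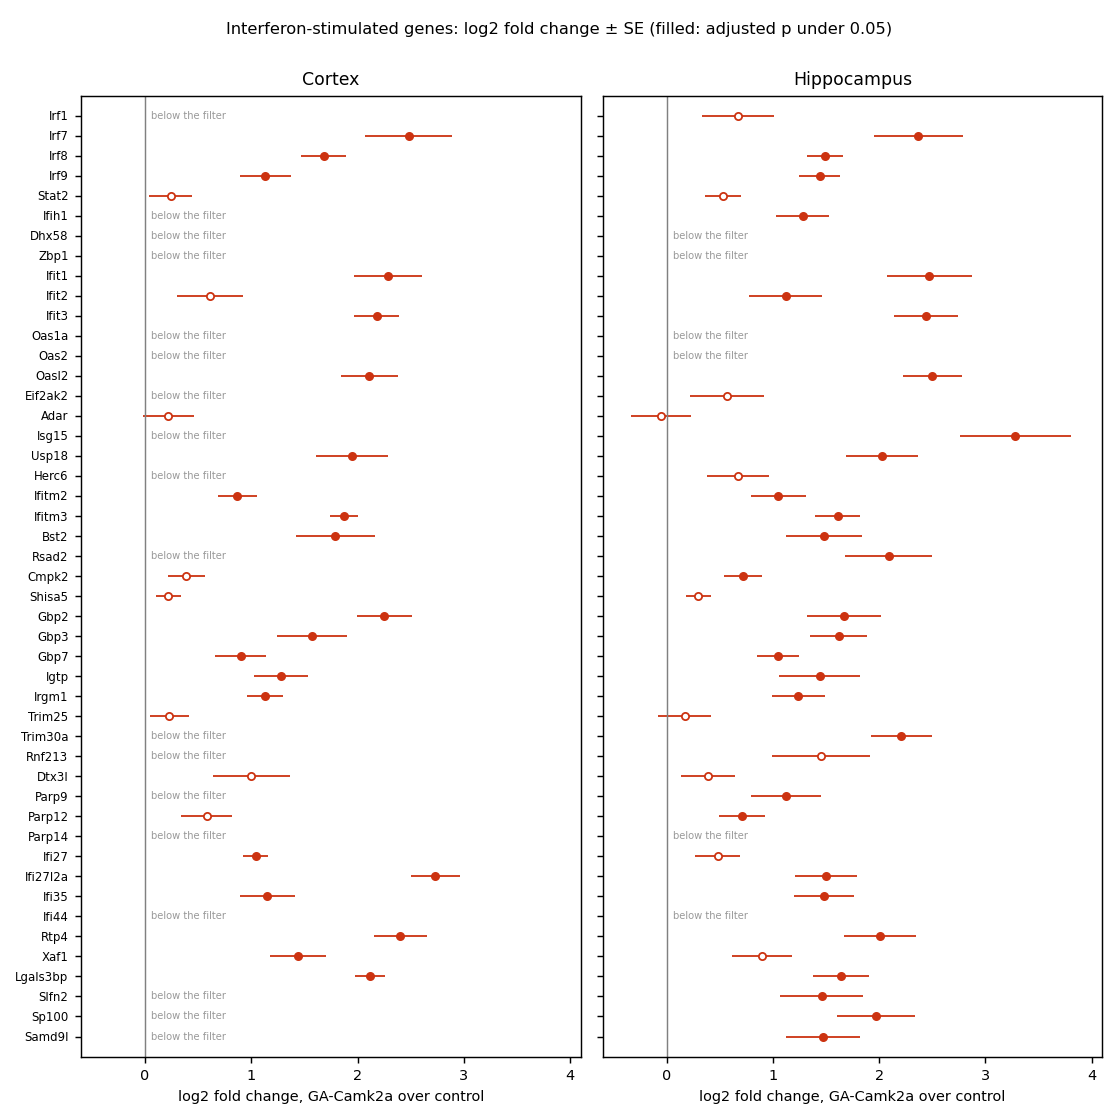
Log2 fold change of each of the 47 members, GA-Camk2a over control, with its standard error, in cortex (left) and hippocampus (right). Filled points passed an adjusted p of 0.05 and open points did not. The points lie to the right of 0 in both tissues except Adar in hippocampus at -0.05, and 18 members in cortex and 6 in hippocampus were below the filter.

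Of the 5 transcription factors, 3 were called in each tissue. Irf7, the factor that amplifies interferon production, had one of the 6 largest changes in either tissue. In cortex it was at 0, 0.554, 2.2, 3.04 and 5.72 CPM in the 5 control libraries and at 6.08 to 26.1 CPM, with a median of 8.72 CPM, in the 6 GA-Camk2a libraries, from 20 and 121 counts summed over the libraries of each group. Its groups did not overlap, and the log2 fold change was 2.48 ± 0.41 (adjusted p = 0.000243), where the value after ± is the standard error here and below. In hippocampus it was at 0.57, 1.36, 2.27 and 2.51 CPM in controls and 5.32 to 21.3 CPM (median 7.55) in GA-Camk2a mice (27 and 134 counts), with a change of 2.37 ± 0.42 (adjusted p = 0.00196). Again every GA-Camk2a library was above every control. Irf9, the DNA-binding partner of Stat2, was higher by 1.13 ± 0.24 (adjusted p = 0.00331) in cortex and 1.44 ± 0.19 (adjusted p = 0.000211) in hippocampus, from 62 and 148 summed counts in the control and GA-Camk2a cortex and 89 and 222 in hippocampus. Irf8, a factor of microglia and other myeloid cells, averaged 4.89 ± 0.724 CPM (SD, n = 5) in control cortex and 16.5 ± 3.48 CPM (SD, n = 6) in GA-Camk2a cortex. It rose by 1.68 ± 0.21 (adjusted p = 9.93e-06) there (54 and 189 counts) and by 1.49 ± 0.17 (adjusted p = 5.36e-05) in hippocampus (93 and 224 counts). The groups did not overlap for Irf8 or Irf9 in either tissue.

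Stat2, the signal transducer that works with Irf9, did not pass the threshold in either tissue. Its cortical values were 7.27, 8.59, 9.11, 10.5 and 11 CPM in controls and 8.74 to 14 CPM (median 9.82) in GA-Camk2a mice (98 and 130 counts). The groups overlapped, with a change of 0.24 ± 0.20 (adjusted p = 0.49). Its hippocampal values were 8.89, 10.9, 11.4 and 12 CPM in controls and 11.7 to 18.4 CPM (median 16.5) in GA-Camk2a mice (159 and 207 counts), and the change was 0.53 ± 0.17 (adjusted p = 0.0575). The lowest GA-Camk2a library there was just below the highest control, and Stat2 passed the threshold with limma-voom, with a minimum count of 30 and when mouse 34 or mouse 35 was left out of the GA-Camk2a group (lowest adjusted p = 0.0391, with the minimum count of 30). Irf1, a factor induced by interferon gamma as well, was below the filter in cortex (40 and 68 counts) and at 0.67 ± 0.34 (adjusted p = 0.242) in hippocampus (68 and 97 counts).

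Of the 8 effectors directed at RNA, 3 of 5 tested were called in cortex and 4 of 6 in hippocampus. The IFIT proteins bind RNAs that lack the marks of host messages and block their translation. Ifit1 in cortex was at 2.72, 4.05, 4.4, 4.77 and 5.26 CPM in controls and 14.9 to 58.4 CPM (median 16.9) in GA-Camk2a mice (47 and 241 counts). Mouse 16 alone was above 20 CPM, but the other GA-Camk2a libraries were also above every control, and the change was 2.29 ± 0.32 (adjusted p = 3.3e-05). In hippocampus Ifit1 was at 2.28, 3.19, 3.74 and 7.14 CPM in controls and 13.4 to 53.5 CPM (median 19.3) in GA-Camk2a mice (62 and 331 counts), a change of 2.47 ± 0.40 (adjusted p = 0.00093) with no overlap. Without mouse 16 the change was 1.91 in cortex and 2.03 in hippocampus. Ifit3 was at 8.1, 9.53, 9.99, 13.3 and 13.4 CPM in controls and 37 to 96.2 CPM (median 43.9) in GA-Camk2a mice (115 and 551 counts) in cortex. Its lowest GA-Camk2a library was far above its highest control, and the change was 2.18 ± 0.21 (adjusted p = 3.1e-07). The hippocampus had 7.75, 8.32, 10.3 and 12 CPM in controls and 32.3 to 91.8 CPM (median 41.7) in GA-Camk2a mice (138 and 703 counts) of Ifit3, again without overlap, and a change of 2.44 ± 0.30 (adjusted p = 0.000106). Without mouse 16 these became 1.99 and 2.17.

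Ifit2 was called in hippocampus alone. Hippocampal libraries gave 3.74, 3.9, 4.1 and 4.56 CPM in controls and 3.99 to 17.4 CPM (median 8.01) in GA-Camk2a mice (60 and 124 counts), a change of 1.12 ± 0.34 (adjusted p = 0.0464). One GA-Camk2a library fell within the controls, and 9 of the 10 leave-one-out fits ended the call (highest adjusted p = 0.142), as did leaving out the 3 libraries of high Rorb (0.54, adjusted p = 0.367) and limma-voom (1.01, adjusted p = 0.0532). The cortex had 1.52, 2.72, 4.77, 6.65 and 6.96 CPM in controls and 3.9 to 11.7 CPM (median 8) in GA-Camk2a mice (54 and 88 counts), with overlapping groups and a change of 0.61 ± 0.31 (adjusted p = 0.216).

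The OAS family makes or resembles enzymes that make oligoadenylates, which activate RNase L. Oasl2, an OAS-like member, was at 1.66, 2.86, 3.3, 4.05 and 4.54 CPM in controls and 6.58 to 23.4 CPM (median 12.4) in GA-Camk2a mice (31 and 144 counts) in cortex. The change was 2.11 ± 0.27 (adjusted p = 1.25e-05), and the groups did not overlap. The hippocampus had 2.51, 3.06, 3.99 and 4.55 CPM in controls and 13.9 to 34.4 CPM (median 17.5) in GA-Camk2a mice (50 and 269 counts), one of the largest changes there at 2.50 ± 0.28 (adjusted p = 5.36e-05). Oas1a and Oas2 were below the filter in both tissues. Oas1a had 3 and 21 summed counts in the control and GA-Camk2a cortex, a ratio of summed CPM of 6.3 with an exact 95% interval of 1.88 to 33 that covers counting error only, and 8 and 10 in hippocampus. Without the filter it was at 2.49 ± 0.72 (adjusted p = 0.0242) in cortex and 0.39 ± 0.70 (adjusted p = 0.867) in hippocampus. Oas2 had 4 and 7 counts in cortex and 5 and 14 in hippocampus, too few to show a difference.

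Adar, which edits adenosine to inosine in double-stranded RNA, and Eif2ak2, the kinase PKR that stops translation on double-stranded RNA, were not called in either tissue. Adar was at 6.36, 6.37, 6.58, 7.33 and 9.54 CPM in controls and 4.55 to 10.8 CPM (median 8.35) in GA-Camk2a mice (73 and 95 counts) in cortex. The hippocampus had 4.1, 6.45, 9.42 and 12.5 CPM in controls and 5.57 to 8.36 CPM (median 7.71) in GA-Camk2a mice (107 and 97 counts). Controls and GA-Camk2a libraries overlapped in both, with changes of 0.22 ± 0.24 (adjusted p = 0.614) and -0.05 ± 0.28 (adjusted p = 0.946). The latter was the single negative value among the members that passed the filter in the main fits. It was of either sign across the alternative settings. Eif2ak2 was below the filter in cortex, at 0.908, 0.954, 1.11, 1.47 and 2.03 CPM in controls and 1.3 to 8.99 CPM (median 2.69) in GA-Camk2a mice (14 and 37 counts). In hippocampus it was at 2.72, 2.92, 2.96 and 3.99 CPM in controls and 1.47 to 7.44 CPM (median 4.29) in GA-Camk2a mice (45 and 64 counts), and the change was 0.57 ± 0.35 (adjusted p = 0.338). The GA-Camk2a libraries spread on both sides of the controls there.

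Isg15 encodes the ubiquitin-like protein that is joined to other proteins after interferon. Its hippocampal values were 0.17, 0.325, 0.456 and 1.71 CPM in controls and 1.67 to 8.15 CPM (median 5.12) in GA-Camk2a mice (7 and 70 counts). Its change of 3.28 ± 0.52 (adjusted p = 0.000862) was the largest estimate among the members tested, and it was 2.91 to 3.89 over the 8 fits without 1 library in which Isg15 was tested. The lowest GA-Camk2a library, mouse 35 with 3 counts, was just below the highest control, and without mouse 16 or mouse 30 the gene did not pass the filter. In cortex it did not pass the filter, at 0, 0.554, 2.72, 2.93 and 3.82 CPM in controls and 3.71 to 18 CPM (median 4.73) in GA-Camk2a mice (17 and 74 counts). The highest control and the lowest GA-Camk2a library overlapped slightly, and without the filter the change was 1.95 ± 0.38 (adjusted p = 3.73e-05).

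Usp18, the protease that removes ISG15 and limits signalling at IFNAR2, was at 1.91, 2.2, 2.53, 2.77 and 3.63 CPM in controls and 5.57 to 29.7 CPM (median 8.47) in GA-Camk2a mice (27 and 110 counts) in cortex. Hippocampal libraries gave 2.04, 2.28, 2.96 and 5.85 CPM in controls and 8.36 to 28.4 CPM (median 10.8) in GA-Camk2a mice (47 and 186 counts). Every GA-Camk2a library was above every control in both tissues, with changes of 1.95 ± 0.34 (adjusted p = 0.000517) and 2.03 ± 0.34 (adjusted p = 0.00142). Mouse 16 was far above the others, and without it the changes were 1.59 (adjusted p = 0.00092) and 1.66 (adjusted p = 0.00143). Herc6, the ligase that attaches ISG15 in the mouse, was below the filter in cortex (51 and 41 counts) and not called in hippocampus, at 0.67 ± 0.29 (adjusted p = 0.163) with 59 and 85 counts. Without the filter the cortical change of Herc6 was negative, at -0.48 ± 0.34 (adjusted p = 0.69).

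**Figure D2:**
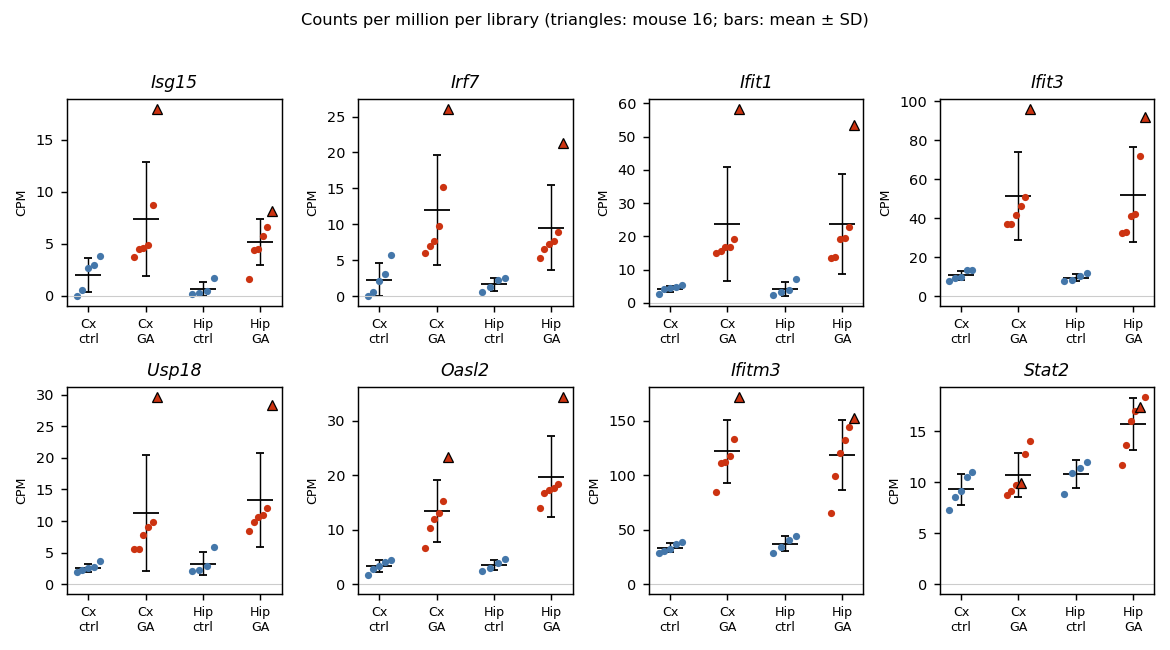
CPM in every library for Isg15, Irf7, Ifit1, Ifit3, Usp18, Oasl2, Ifitm3 and Stat2, by group (Cx, cortex; Hip, hippocampus; ctrl, control; GA, GA-Camk2a), with the mean and SD as bars. Triangles mark mouse 16, which for Ifit1 reached 58.4 CPM in cortex and 53.5 CPM in hippocampus against at most 19.2 and 22.7 CPM in the other GA-Camk2a libraries. Stat2 in cortex shows overlapping groups.

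Of the 6 members grouped as effectors at membranes or of virus entry or release, 3 of 5 tested were called in cortex and 5 of 6 in hippocampus. The group is loose and also holds the nucleotide kinase Cmpk2. Ifitm3, which blocks fusion of viruses in endosomes, was at 29.1, 30.8, 31.9, 37 and 39.1 CPM in controls and 84.6 to 172 CPM (median 115) in GA-Camk2a mice (344 and 1362 counts) in cortex. It was higher by 1.87 ± 0.13 (adjusted p = 3.79e-09). The hippocampus had 28.5, 34.5, 41 and 43.8 CPM in controls and 65.4 to 152 CPM (median 126) in GA-Camk2a mice (568 and 1486 counts), higher by 1.61 ± 0.21 (adjusted p = 0.000136). The groups were well apart in both tissues. Its neighbour Ifitm2 was higher by 0.87 ± 0.18 (adjusted p = 0.00264) in cortex (104 and 209 counts) and by 1.05 ± 0.26 (adjusted p = 0.0178) in hippocampus (171 and 304 counts), where the groups overlapped and leaving out control mouse 11, 20 or 31 ended the call (highest adjusted p = 0.0621), as did leaving out the 3 libraries of high Rorb (0.82, adjusted p = 0.129).

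Bst2, or tetherin, holds budding viruses at the cell surface. In cortex it was at 0.954, 1.82, 1.94, 2.03 and 2.56 CPM in controls and 2.91 to 13.5 CPM (median 6.68) in GA-Camk2a mice (21 and 80 counts), a change of 1.79 ± 0.37 (adjusted p = 0.00216). In hippocampus it was at 1.14, 1.62, 2.04 and 2.51 CPM in controls and 2.66 to 8.86 CPM (median 5.24) in GA-Camk2a mice (30 and 75 counts), a change of 1.48 ± 0.36 (adjusted p = 0.0147). The groups did not overlap in either tissue, although the lowest GA-Camk2a library lay close to the highest control. Leaving out control mouse 11, 20 or 31 ended the hippocampal call (highest adjusted p = 0.0548). Rsad2, which encodes viperin, an enzyme that makes a chain-terminating nucleotide, was below the filter in cortex (29 and 57 counts) and higher by 2.09 ± 0.41 (adjusted p = 0.00367) in hippocampus (28 and 112 counts, groups apart).

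Cmpk2, the nucleotide kinase that lies beside Rsad2 and is induced with it, was called in hippocampus alone. It was at 10.5, 11.4, 12.4 and 16.2 CPM in controls and 16.7 to 28 CPM (median 21) in GA-Camk2a mice (189 and 280 counts), without overlap, and higher by 0.72 ± 0.18 (adjusted p = 0.0151). The call was lost without control mouse 31 or 37 (highest adjusted p = 0.0733). Its cortical values were 11.4, 12.7, 15.8, 19.1 and 19.1 CPM in controls and 16.2 to 26.1 CPM (median 20.4) in GA-Camk2a mice (167 and 236 counts). There the groups overlapped, with a change of 0.39 ± 0.17 (adjusted p = 0.136). Shisa5, an endoplasmic reticulum protein, was among the smallest changes, at 0.22 ± 0.12 (adjusted p = 0.25) in cortex and 0.30 ± 0.12 (adjusted p = 0.12) in hippocampus. It was at 59, 60.2, 74.4, 78.4 and 79 CPM in controls and 68.2 to 89.8 CPM (median 83.1) in GA-Camk2a mice (728 and 930 counts) in cortex and at 42.7, 45.1, 46.2 and 47.4 CPM in controls and 46.7 to 66.9 CPM (median 58.9) in GA-Camk2a mice (694 and 752 counts) in hippocampus, overlapping in both.

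All 5 interferon-inducible GTPases, which assemble on the vacuoles of intracellular pathogens, were called higher in both tissues. Gbp2 was at 1.91, 2.49, 2.53, 2.56 and 3.63 CPM in controls and 8.45 to 21.6 CPM (median 11.5) in GA-Camk2a mice (27 and 140 counts) in cortex. The groups were apart, with a change of 2.25 ± 0.26 (adjusted p = 2.7e-06). Its hippocampal values were 2.72, 2.74, 4.56 and 9.09 CPM in controls and 10.2 to 24.1 CPM (median 12.4) in GA-Camk2a mice (64 and 191 counts), also apart, with a change of 1.67 ± 0.35 (adjusted p = 0.00649). The guanylate-binding protein Gbp3 was higher by 1.57 ± 0.33 (adjusted p = 0.00239) in cortex (34 and 109 counts) and 1.62 ± 0.27 (adjusted p = 0.00109) in hippocampus (62 and 172 counts). Gbp7 was higher by 0.90 ± 0.24 (adjusted p = 0.0154) in cortex (59 and 119 counts) and 1.05 ± 0.20 (adjusted p = 0.00367) in hippocampus (92 and 170 counts), and its cortex call was lost without control mouse 37 or 38 (highest adjusted p = 0.0606). Of the immunity-related GTPases, Irgm1 was higher by 1.13 ± 0.17 (adjusted p = 8.21e-05) in cortex (116 and 273 counts) and 1.24 ± 0.25 (adjusted p = 0.00496) in hippocampus (155 and 338 counts). Igtp was higher by 1.28 ± 0.25 (adjusted p = 0.00126) in cortex (62 and 164 counts) and 1.44 ± 0.38 (adjusted p = 0.0248) in hippocampus (65 and 172 counts). The hippocampal call of Igtp was lost in 4 of 10 leave-one-out fits, those without GA-Camk2a mouse 16 or 23 or control mouse 20 or 37 (highest adjusted p = 0.122), and after thinning to the smallest library (0.89, adjusted p = 0.147).

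Of the 7 ubiquitin ligases and ADP-ribose enzymes, 0 of 3 tested were called in cortex and 3 of 6 in hippocampus. Trim30a, a TRIM protein of the mouse that restrains inflammatory signalling, was the clearest, at 1.14, 1.6, 1.87 and 2.27 CPM in controls and 6.65 to 12.4 CPM (median 7.85) in GA-Camk2a mice (27 and 114 counts) in hippocampus. Its groups did not overlap and it was higher by 2.21 ± 0.29 (adjusted p = 0.000186). In cortex it fell short of the filter, at 0.506, 0.908, 1.11, 1.47 and 1.91 CPM in controls and 3.04 to 10.8 CPM (median 3.78) in GA-Camk2a mice (12 and 53 counts). The groups were apart there too, and without the filter it was higher by 1.96 ± 0.44 (adjusted p = 0.000812). The ADP-ribosyltransferases Parp9 and Parp12 were called in hippocampus, Parp9 by 1.12 ± 0.33 (adjusted p = 0.0374) (44 and 88 counts) and Parp12 by 0.71 ± 0.22 (adjusted p = 0.0484). Parp9 lost its call in 6 of 8 leave-one-out fits that tested it (highest adjusted p = 0.119) and with DESeq2 (1.12, adjusted p = 0.0522), and it was below the filter in cortex (22 and 36 counts).

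Parp12 was at 5.52, 5.93, 7.98 and 8.55 CPM in controls and 8.82 to 15.3 CPM (median 10.1) in GA-Camk2a mice (105 and 151 counts) in hippocampus. These groups were apart by a small margin, the call was lost in 9 of 10 leave-one-out fits (highest adjusted p = 0.148), and it was lost in 8 of 10 other settings, among them DESeq2 (0.71, adjusted p = 0.0864), limma-voom, no filter, no batch term and the 3 libraries of high Rorb left out (0.50, adjusted p = 0.266). In cortex Parp12 was at 2.86, 3.88, 5.06, 6.36 and 6.6 CPM in controls and 6.5 to 8.16 CPM (median 7.39) in GA-Camk2a mice (52 and 85 counts), just overlapping, with a change of 0.58 ± 0.24 (adjusted p = 0.124). Dtx3l, the ligase that works as a pair with PARP9, was not called: it was at 0.954, 1.01, 3.6, 4.76 and 5.45 CPM in controls and 4.05 to 10.4 CPM (median 6.96) in GA-Camk2a mice (35 and 76 counts) in cortex and 4.25, 5.2, 5.24 and 9.12 CPM in controls and 5.38 to 9.76 CPM (median 7.41) in GA-Camk2a mice (80 and 95 counts) in hippocampus. The groups overlapped in both tissues, and the changes were 1.00 ± 0.36 (adjusted p = 0.0776) and 0.39 ± 0.25 (adjusted p = 0.374). Rnf213, a very large ligase with antimicrobial activity, was below the filter in cortex (30 and 43 counts) and at 1.45 ± 0.46 (adjusted p = 0.0548) in hippocampus (41 and 102 counts), where it passed the threshold with DESeq2, with no filter and without GA-Camk2a mouse 30, 34 or 35 (lowest adjusted p = 0.000728, with no filter). Parp14, another ADP-ribosyltransferase, was below the filter in both tissues, with 15 and 37 counts in cortex and 30 and 62 in hippocampus.

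Trim25, the ligase that activates the RNA sensor RIG-I, differed mainly by the batch of the library. It was at 2.89 to 7.09 CPM in the batch 1 libraries of cortex and at 49 to 64.1 CPM in batch 2, and at 2.28 to 8.96 and 48 to 84.9 CPM in hippocampus. The batches did not overlap in either tissue, and each of these 4 ranges holds libraries of both genotypes. With the batch term the genotype change was 0.23 ± 0.18 (adjusted p = 0.455) in cortex and 0.17 ± 0.25 (adjusted p = 0.747) in hippocampus, and without it -0.01 and -0.18. Listed by group, Trim25 was at 3.32, 3.82, 4.03, 49 and 54.7 CPM in controls and 2.89 to 64.1 CPM (median 5.49) in GA-Camk2a mice (189 and 212 counts) in cortex and at 2.28, 2.92, 51.1 and 84.9 CPM in controls and 5.77 to 67.6 CPM (median 28.5) in GA-Camk2a mice (469 and 336 counts) in hippocampus, so that the groups overlap in each tissue. Within batch 1 of hippocampus both controls, at 2.28 and 2.92 CPM, were below the 3 GA-Camk2a libraries, at 5.77, 7.44 and 8.96 CPM, and the change there was 1.50 (adjusted p = 0.144), against -0.22 (adjusted p = 0.638) in batch 2. The cause of the difference between batches was not tested.

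**Figure D3:**
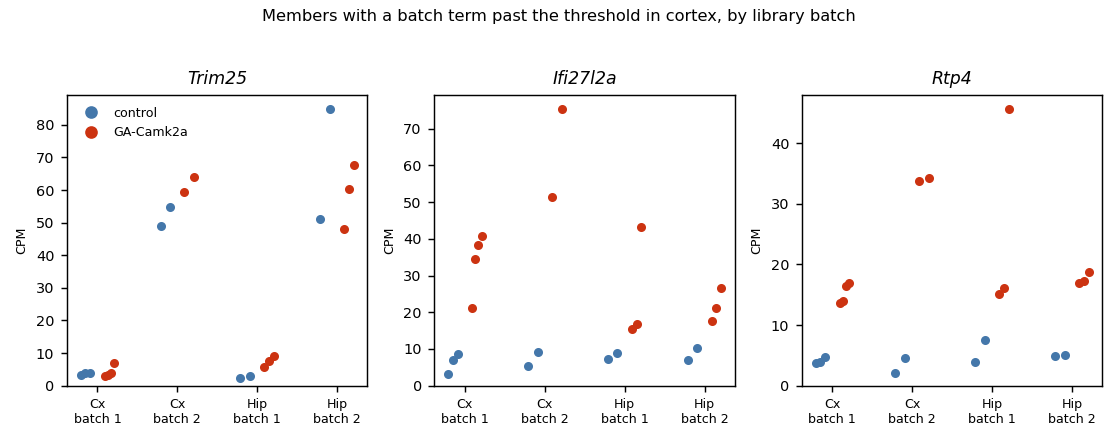
CPM of Trim25, Ifi27l2a and Rtp4 per library, by tissue (Cx, cortex; Hip, hippocampus) and library batch, for control and GA-Camk2a mice. These are the 3 members whose batch term passed the threshold in cortex. Trim25 lies between 2.28 and 8.96 CPM in batch 1 and between 48 and 84.9 CPM in batch 2, in ranges that hold libraries of both genotypes, while Ifi27l2a and Rtp4 separate the genotypes within each batch.

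The group of mitochondrial and small induced proteins, in which the secreted glycoprotein Lgals3bp was also counted, held 2 of the 3 largest changes in cortex. Of this group 6 of 6 tested were called in cortex and 4 of 6 in hippocampus. Ifi27l2a, a small hydrophobic protein, was at 3.3, 5.45, 6.93, 8.59 and 9.11 CPM in controls and 21.3 to 75.5 CPM (median 39.7) in GA-Camk2a mice (67 and 477 counts) there. Its change of 2.73 ± 0.23 (adjusted p = 4.41e-08) was the highest of any member in cortex. Hippocampal libraries gave 7.13, 7.14, 8.89 and 10.3 CPM in controls and 15.5 to 43.2 CPM (median 19.4) in GA-Camk2a mice (121 and 315 counts), and the change was 1.50 ± 0.29 (adjusted p = 0.00378). The groups did not overlap in either tissue. Rtp4, a chaperone of receptors, was at 2.03, 3.82, 3.88, 4.54 and 4.76 CPM in controls and 13.7 to 34.2 CPM (median 16.7) in GA-Camk2a mice (40 and 229 counts) in cortex. The hippocampus had 3.88, 4.93, 5.13 and 7.47 CPM in controls and 15.1 to 45.7 CPM (median 17.1) in GA-Camk2a mice (78 and 299 counts). Both tissues separated the genotypes, with changes of 2.40 ± 0.25 (adjusted p = 8e-07) and 2.01 ± 0.34 (adjusted p = 0.00139). Lgals3bp, a secreted glycoprotein, rose by 2.12 ± 0.14 (adjusted p = 1.54e-09) in cortex (161 and 760 counts) and by 1.64 ± 0.26 (adjusted p = 0.000815) in hippocampus (360 and 1024 counts), with the groups apart in both. Ifi35, a leucine zipper protein, rose by 1.15 ± 0.26 (adjusted p = 0.0043) in cortex, where the groups overlapped (53 and 127 counts), and by 1.48 ± 0.28 (adjusted p = 0.00298) in hippocampus, where they did not (76 and 184 counts).

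Ifi27 and Xaf1 were called in cortex alone. Ifi27, a mitochondrial protein, was at 51.1, 52.8, 57.2, 61.8 and 71.8 CPM in controls and 105 to 140 CPM (median 112) in GA-Camk2a mice (607 and 1381 counts) in cortex. The groups were far apart and the change was 1.04 ± 0.12 (adjusted p = 2.01e-06). In hippocampus it was at 81.5, 103, 110 and 131 CPM in controls and 97.6 to 229 CPM (median 151) in GA-Camk2a mice (1707 and 2112 counts), where the groups overlapped and the change was 0.48 ± 0.21 (adjusted p = 0.161). It passed the threshold there when mouse 34 was left out (adjusted p = 0.0329) and with no filter (adjusted p = 0.011). Xaf1, which opposes the apoptosis inhibitor XIAP, was at 2.77, 2.86, 3.66, 4.05 and 4.54 CPM in controls and 4.56 to 16.2 CPM (median 8.59) in GA-Camk2a mice (36 and 105 counts) in cortex. Its groups just separated, with a change of 1.44 ± 0.26 (adjusted p = 0.000612). Its hippocampal values were 3.19, 3.25, 3.57 and 6.84 CPM in controls and 5.02 to 10 CPM (median 7.5) in GA-Camk2a mice (57 and 98 counts), a change of 0.90 ± 0.28 (adjusted p = 0.0532) that passed the threshold with limma-voom, with upper quartile normalisation and without control mouse 31 or GA-Camk2a mouse 23 or 35 (lowest adjusted p = 0.0334). Neither gene had a difference between the tissues that passed its own test.

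The growth and nuclear body proteins were measured in hippocampus more than in cortex. Slfn2, which keeps T cells and monocytes quiescent, was higher by 1.46 ± 0.39 (adjusted p = 0.0256) in hippocampus (34 and 89 counts), a call lost without control mouse 11 or 37 (highest adjusted p = 0.115). Sp100, a protein of nuclear bodies, was higher by 1.97 ± 0.37 (adjusted p = 0.00288) (28 and 98 counts), with the groups apart. Samd9l, which restrains growth and translation, was higher by 1.47 ± 0.35 (adjusted p = 0.0129) (27 and 72 counts), a call lost without control mouse 37 (adjusted p = 0.0777). In cortex these 3 were below the filter, with 23 and 70 counts in controls and GA-Camk2a mice for Slfn2, 30 and 49 for Sp100 and 29 and 54 for Samd9l. Without the filter Slfn2 was higher in cortex by 1.45 ± 0.36 (adjusted p = 0.00395), and Sp100 and Samd9l were at 0.54 ± 0.37 (adjusted p = 0.69) and 0.73 ± 0.36 (adjusted p = 0.509).

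Among the sensors, Ifih1, which encodes MDA5, a sensor of long double-stranded RNA, was higher by 1.28 ± 0.25 (adjusted p = 0.0039) in hippocampus (51 and 119 counts) and below the filter in cortex (29 and 65 counts). Zbp1, a sensor of Z-form nucleic acid that can start cell death, was below the filter in both tissues. The cortex had 0, 0, 0, 0.366 and 0.554 CPM in controls and 1.3 to 5.83 CPM (median 3.43) in GA-Camk2a mice (3 and 42 counts). The groups did not overlap, and the ratio of summed CPM was 12.6 with an exact 95% interval of 4.03 to 63.6 for counting error only. Without the filter the change was 3.42 ± 0.62 (adjusted p = 6.03e-06). Hippocampal libraries gave 0.325, 1.02, 1.14 and 1.14 CPM in controls and 1.33 to 8.86 CPM (median 3.79) in GA-Camk2a mice (14 and 52 counts), again apart, and without the filter it was higher by 1.93 ± 0.44 (adjusted p = 0.000851). Dhx58, which encodes the RIG-I relative LGP2, had 7 and 31 counts in cortex and 23 and 34 in hippocampus. Ifi44, an interferon-induced protein of the cytoplasm, had 11 and 41 counts in cortex and 9 and 36 in hippocampus. Without the filter Dhx58 was at 1.91 ± 0.57 (adjusted p = 0.0306) in cortex and 0.55 ± 0.44 (adjusted p = 0.792) in hippocampus, and Ifi44 at 1.72 ± 0.48 (adjusted p = 0.0179) and 1.88 ± 0.53 (adjusted p = 0.0173).

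Between the tissues, 29 members were tested in both, and 19 of them were called higher in both, against 2.73% of the 12916 genes tested in both. Called higher were Ifi27 and Xaf1 in cortex alone, Ifit2, Cmpk2 and Parp12 in hippocampus alone, and Stat2, Adar, Shisa5, Trim25 and Dtx3l were called in neither. The other 12 members tested were tested in hippocampus alone, and 8 of them were called. To ask whether the genotype effect itself differed, the hippocampal effect minus the cortical effect was tested over all 21 libraries. None of the 40 members tested passed the threshold with edgeR or with DESeq2, against 0.4% of all 14751 genes, and 4 had an unadjusted p under 0.05 with edgeR. Those 4 were Sp100, with a difference of 1.41 ± 0.53 (adjusted p = 0.324), Herc6 with 1.13 ± 0.44 (adjusted p = 0.344), Ifi27l2a with -1.20 ± 0.47 (adjusted p = 0.344) and Ifi27 with -0.56 ± 0.26 (adjusted p = 0.455), where a negative value is a larger estimate in cortex. Ifi27l2a passed the threshold when the hippocampal library of mouse 16 was left out, at -1.58 with an adjusted p of 0.0479. For Xaf1 the difference was -0.50 ± 0.42 (adjusted p = 0.748), and for Isg15, which passed the filter when the tissues were fitted together, 1.35 ± 0.93 (adjusted p = 0.671).

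Levels also differed between the tissues of control mice for a few members. Of 27 tested in the 9 control libraries, 3 were called, against 16.3% of 14435 genes. Ifi27 was higher in hippocampus than in cortex, by 0.83 ± 0.14 (adjusted p = 0.000636), and Lgals3bp by 0.57 ± 0.18 (adjusted p = 0.039). Shisa5 was lower in hippocampus, at -0.65 ± 0.13 (adjusted p = 0.00182). With the mouse as a replicate block over the 4 control mice that gave both tissues, Ifi27 and Shisa5 kept their calls and Lgals3bp did not (adjusted p = 0.186). Lgals3bp also missed the threshold in 6 of the 9 leave-one-out fits.

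The size of the response varied among the GA-Camk2a mice, and 1 mouse stood out in both tissues. The summed level of the 47 members was 357 to 421 CPM in cortex controls and 390 to 454 CPM in hippocampus controls. In mouse 16 it was 1289 CPM in cortex and 1385 CPM in hippocampus, against 677 to 947 and 683 to 959 CPM in the other GA-Camk2a libraries. Mouse 16 was the highest of the 6 GA-Camk2a libraries for 20 of the 29 members tested in cortex and 27 of 41 in hippocampus. It also had the highest sum of microglia markers in each tissue, 1612 and 1207 CPM. Its cortex library had the fewest counts of the GA-Camk2a cortex group and belonged to batch 2, and its hippocampal library to batch 1. The hippocampal library also had the highest Rorb, 5303 CPM, and the highest Ttr, a gene of the choroid plexus, at 55186 CPM against 1786 to 49406 CPM in the other hippocampal libraries, and their part in its values was not tested. Without mouse 16, 19 of 25 members tested were called higher in cortex, against 5.87% of all genes in that fit, and 25 of 38 in hippocampus, against 3.7%. The lowest GA-Camk2a values came most often from mouse 30 in cortex (14 of 29 members) and from mouse 34 in hippocampus (16 of 41).

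**Figure D4:**
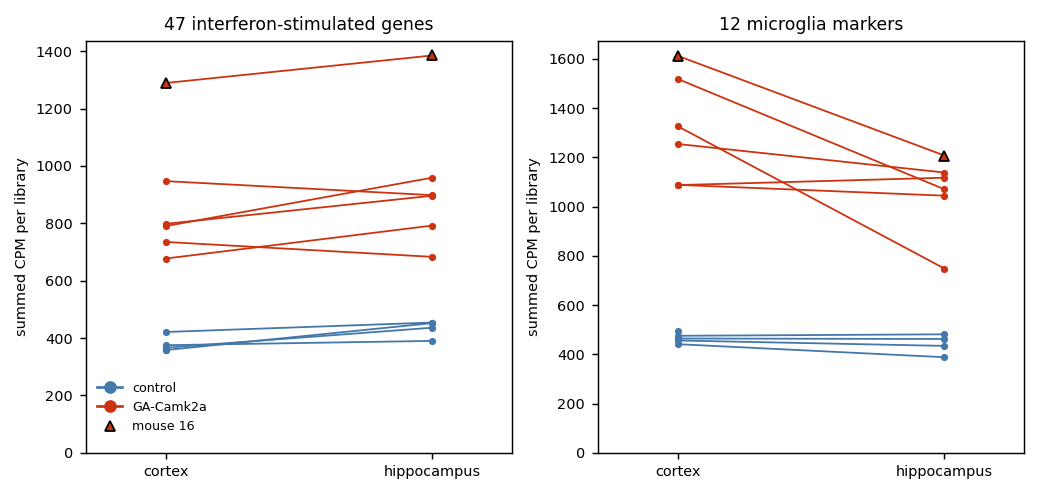
Summed CPM of the 47 interferon-stimulated genes (left) and of 12 microglia markers (right) in each library, with a line joining the cortex and hippocampus of a mouse. Triangles mark mouse 16, at 1289 and 1385 CPM for the members. For both sums every GA-Camk2a library lies above every control library in its tissue.

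The batches of the labels were also examined separately. In cortex, 19 of 33 members tested were called higher within batch 1, against 3.24% of all genes tested there, and 17 of 29 within batch 2, against 1.12%, with median log2 fold changes of 1.04 and 1.91. The changes were positive for 32 of 33 in batch 1, the exception being Herc6 at -0.69 (adjusted p = 0.349), and for all 29 in batch 2. In hippocampus, 3 of 43 were called within batch 1, where only 0.301% of all genes (48 of 15966) were called higher, so that few genes of any kind passed in that fit. All 43 log2 changes were positive, with a median of 1.33. Within batch 2, 19 of 35 were called, against 2.42% of all genes, with 33 positive and a median of 1.37. None was called lower in any of the 4 fits. Each hippocampal batch holds 2 control and 3 GA-Camk2a libraries.

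Upstream of the members, the ligands were close to absent from the counts. None of the 18 interferon genes found in the table passed the filter. Ifnb1, interferon beta, had 1 count in GA-Camk2a cortex, 1 in GA-Camk2a hippocampus and 0 in the controls. The interferon alpha gene Ifna16 had more counts than the others, 21 in GA-Camk2a cortex and 16 and 30 in control and GA-Camk2a hippocampus. All 21 came from mouse 41 and the hippocampal counts came from mice 11, 16 and 30. At this depth the ligands cannot be compared between the groups.

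Of the receptors and kinases, Ifnar2, the chain that binds STAT2, was higher in cortex by 0.72 ± 0.17 (adjusted p = 0.00618) and at 0.46 ± 0.20 (adjusted p = 0.176) in hippocampus. Ifnar1, its partner, was at 0.01 ± 0.19 (adjusted p = 0.986) and 0.10 ± 0.16 (adjusted p = 0.752). Ifngr1, the ligand-binding chain of the interferon gamma receptor, was higher in both tissues, by 0.57 ± 0.15 (adjusted p = 0.0118) and 0.53 ± 0.16 (adjusted p = 0.0435). Ifngr2, the second chain, was lower in hippocampus, at -0.35 ± 0.10 (adjusted p = 0.0299), and at -0.03 ± 0.12 (adjusted p = 0.907) in cortex. Without the hippocampal libraries of high Rorb the estimates were of similar size but did not pass the threshold, at 0.59 ± 0.18 (adjusted p = 0.0573) for Ifngr1 and -0.32 ± 0.12 (adjusted p = 0.133) for Ifngr2. Jak1, Jak2 and Tyk2 were not called in either tissue, and Tyk2 was tested in hippocampus alone.

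Of the signal transducers and regulators outside the set, Stat3, which also serves other cytokines, rose by 0.49 ± 0.14 (adjusted p = 0.0274) in cortex and 0.74 ± 0.13 (adjusted p = 0.00173) in hippocampus, and Ptpn6, a phosphatase of blood-derived cells and microglia that limits signalling, by 1.78 ± 0.33 (adjusted p = 0.000948) and 1.77 ± 0.24 (adjusted p = 0.00027). Among the sensors and adaptors, Myd88, the adaptor of most Toll-like receptors, rose in cortex by 1.23 ± 0.29 (adjusted p = 0.00671). In hippocampus Rigi, the RNA sensor RIG-I, rose by 1.12 ± 0.26 (adjusted p = 0.0126) and Tlr3, a sensor of double-stranded RNA, by 0.97 ± 0.21 (adjusted p = 0.00859). The others of this list were not called: 1 of 6 tested passed in cortex and 2 of 8 in hippocampus. Of the 6 nucleases and editors that limit nucleic acid sensing, Rnaseh2b rose in cortex by 0.69 ± 0.15 (adjusted p = 0.00309) and Dnase2a in hippocampus by 0.83 ± 0.22 (adjusted p = 0.0228). Adarb1, an RNA editor mostly of neurons, fell by 0.37 ± 0.12 (adjusted p = 0.0373) in cortex and 0.55 ± 0.12 (adjusted p = 0.0101) in hippocampus. The cortical call of Adarb1 was lost with upper quartile normalisation (-0.34, adjusted p = 0.053) and with DESeq2 (-0.37, adjusted p = 0.104), and that of Stat3 with DESeq2 (0.49, adjusted p = 0.0539). Without the hippocampal libraries of high Rorb, Dnase2a and Adarb1 did not pass the threshold, although their estimates were close to those above, at 0.80 ± 0.26 (adjusted p = 0.0747) and -0.53 ± 0.16 (adjusted p = 0.0543). The hippocampal call of Tlr3 was lost after thinning to the smallest library (0.76, adjusted p = 0.13).

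A wider list of 61 other interferon-stimulated genes had 9 of 20 tested called higher in cortex and 13 of 35 in hippocampus, and 0 lower in either. Of all genes tested, 6.35% and 4.97% were called higher. The rest of the 61 were below the filter, which favoured genes high in GA-Camk2a mice here too. Log2 fold changes of those tested ran from -0.40 to 2.31 (median 0.46) in cortex and from -0.32 to 3.92 (median 0.78) in hippocampus. Psmb8, a subunit of the immunoproteasome, was higher by 2.31 ± 0.20 (adjusted p = 6.94e-08) in cortex and 1.86 ± 0.28 (adjusted p = 0.000653) in hippocampus. Psmb9, another such subunit, was higher by 1.75 ± 0.27 (adjusted p = 0.00011) and 1.13 ± 0.28 (adjusted p = 0.0155). Tgtp1, an immunity-related GTPase, was higher in cortex by 1.92 ± 0.26 (adjusted p = 2.45e-05). The chemokine Cxcl10 was higher in hippocampus by 3.92 ± 0.58 (adjusted p = 0.000468), from 8 counts in controls and 134 in GA-Camk2a mice, and below the filter in cortex with 5 and 66 counts.

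Some members have near-identical relatives, and how reads shared between them were assigned is not stated, so the values of these genes are uncertain as values of 1 gene. Ifit3b, the close copy of Ifit3, was higher by 1.88 ± 0.22 (adjusted p = 5.21e-06) in cortex and 1.97 ± 0.27 (adjusted p = 0.000242) in hippocampus. Oas1g, a relative of Oas1a, was higher in hippocampus by 1.91 ± 0.57 (adjusted p = 0.0428), and Trim30d, a relative of Trim30a, by 1.77 ± 0.33 (adjusted p = 0.00259). Gbp6, of the same family as Gbp2 but not shown here to be a close copy of it, was higher in hippocampus by 2.19 ± 0.56 (adjusted p = 0.0193). The relatives measured above the filter numbered 3 in cortex and 7 in hippocampus, of which 1 and 4 were called higher.

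Markers of the cell types that could carry the members were measured beside them. Of 12 microglia markers, 9 were higher in cortex and 7 in hippocampus. C1qa, C1qb and C1qc, which encode the complement protein C1q, were higher by 1.99 ± 0.13, 1.73 ± 0.11 and 1.72 ± 0.12 in cortex, and P2ry12 and Tmem119, markers of resting microglia, were at 0.07 ± 0.13 (adjusted p = 0.802) and -0.14 ± 0.23 (adjusted p = 0.753). Of 8 astrocyte markers, 5 were higher in each tissue, with Gfap at 2.27 ± 0.16 (adjusted p = 3.8e-09) and 2.32 ± 0.14 (adjusted p = 4.1e-07). Of 6 excitatory neuron markers, 4 were lower in cortex and 5 in hippocampus, and of 7 endothelial markers none was called. Inhibitory neuron markers gave 1 call of 6 in cortex and 2 of 6 in hippocampus, and oligodendrocyte markers 2 of 7 and 1 of 7, all higher. T and NK cell markers summed to 21.3 to 49.6 CPM in cortex controls and 21.6 to 34.3 CPM in GA-Camk2a cortex, and to 6.62 to 8.77 and 10.2 to 18 CPM in hippocampus. Of these 10 markers, 1 was tested in cortex and was called lower, at -0.69, and 0 were tested in hippocampus. Monocyte and neutrophil markers summed to 10.3 to 21.8 CPM in cortex controls and 15.2 to 28.7 CPM in GA-Camk2a cortex. In hippocampus they summed to 12 to 17.8 CPM in controls and 14.3 to 547 CPM in GA-Camk2a mice, the highest value being mouse 41. Of the plasmacytoid dendritic cell list, the called genes were Siglech in cortex and the members Bst2 and Irf8, and its defining genes Ly6d, Klk1 and Cd209d were at 1.18 CPM or less on average in every group. Of 4 blood markers tested, 3 were higher in cortex and 0 were called in hippocampus. The part of these cell types in the changes of the members was not tested.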

How the data were processed

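Counts per gene were deposited by the authors as 1 table of whole numbers for 21 libraries, with 0 columns unused. Prime-seq libraries were demultiplexed and counted by the authors with zUMIs, and the submitters' processing notes name STAR, cutadapt 1.12, FastQC 0.11.8, DESeq2 1.44 and the build mm39 (GRCm39). Whether the counts are molecules or reads, the use of strand and introns and the annotation release are not given in the sources used here, so antisense, overlapping and near-identical genes may share counts. The row for GFP (3.38e-05% of counts) was left out of totals and tests. Symbols came from a GENCODE M21 table for GRCm38 through Ensembl numbers and matched 43308 of 64362 rows, which hold 96.1% of the counts. The 47 members, the pathway and marker lists and the rule for named genes were chosen with earlier results of these data known.

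Groups, batch and age came from the labels. Within each tissue, edgeR 4.0.16 (TMM normalisation, quasi-likelihood F test, R 4.3.3) was fitted to all genes passing filterByExpr at a minimum count of 10, with batch and genotype as terms. P-values were adjusted over all genes by Benjamini-Hochberg and called below 0.05. The study's methods name DESeq2 for these libraries and give no covariates, and version 1.42.0 was run as an alternative with the covariates above. The difference between tissues and the control tissues were fitted likewise. Exact permutation tests (SciPy 1.17.1) compared depths. All pairs of libraries of 1 group differed by more than counting noise. Within a tissue each library is a separate mouse. The fits across tissues hold 2 libraries from most mice and took no mouse block, except in the alternative with one. The same number in both tissues marks the same mouse, by the labels, which is where the pairing comes from. The correlation of residuals between the tissues of a mouse was -0.134 to 0.207 and was the highest for its own mouse in 3 of 10 mice.

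The value of every control library and the lowest, median and highest GA-Camk2a value are given for the members with the 6 largest and the 4 smallest changes in a tissue, those called in 1 tissue alone and 9 examples of roles. Of the other lists, ligands, receptors, kinases and close relatives are named, and otherwise the 3 genes with the lowest adjusted p, apart from 1 item that is not reported here. Alternatives were upper quartile and DESeq2 size factors, limma-voom (limma 3.58.1), no filter and a minimum count of 30, no batch term, each batch alone, thinning to the smallest library, a mouse block and leaving out each library. Leaving out the hippocampal libraries with Rorb above 1000 CPM was added after seeing the data. Promoter windows are from RefSeq on GRCm38.p6, another build than that of the table, and are matched by symbol alone.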

Additional observations from a re-analysis of the deposited data

Results flagged for a closer look

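Of the 140 groups of values examined for a library far from the others, 14 (10%) held one by Dixon's criterion, which chance meets in about 1 group in 20. In 11 of the 14, 4 in cortex and 7 in hippocampus, the library was mouse 16 and lay above the rest of the GA-Camk2a group. In cortex these were Ifit1 at 58.4 CPM with the next library at 19.2, Ifit3 at 96.2 with the next at 50.7, Usp18 at 29.7 with the next at 9.91, and Gbp2 at 21.6 with the next at 12.8 CPM. In hippocampus they were Irf7 at 21.3 with the next at 8.92, Irf9 at 22.7 with the next at 17.3, Ifit1 at 53.5 with the next at 22.7, and Oasl2 at 34.4 with the next at 18.4 CPM. Usp18 at 28.4 with the next at 12, Rtp4 at 45.7 with the next at 18.7, and Lgals3bp at 135 with the next at 75.3 CPM were the other hippocampal ones. The genes of 1 library are not independent of each other, so the 11 describe 1 mouse.

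The other 3 were control libraries. Irf8 was at 5.2 CPM in the hippocampus of mouse 11, below the next at 6.27. Ifitm2 was at 11.1 CPM in the cortex of mouse 37, above the next at 9.99. Xaf1 was at 6.84 CPM in the hippocampus of mouse 31, above the next at 3.57.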

How the results depend on the processing

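In cortex the number of members called higher, 21, fell to 7 of 9 tested at a minimum count of 30, against 721 of all 8471 genes. After thinning to the smallest library it was 13 of 16, against 531 of all 10546 genes. Both settings test fewer genes. When 1 library was left out it was 18 to 22, and 564 to 797 of all genes tested were called higher. In hippocampus the 30 fell to 15 of 18 at a minimum count of 30, against 686 of all 10284 genes. It fell to 18 of 28 after thinning, against 503 of all 12366 genes. It was 3 in batch 1 alone and 19 in batch 2 alone, against 0.301% and 2.42% of all genes. When 1 library was left out it was 23 to 33, and 449 to 811 of all genes tested were called higher. No member was called lower under any of these settings. For the difference between tissues, 0 members became 1, Ifi27l2a, with no filter and when the hippocampus of mouse 16 was left out, a range of 0 to 1 over the libraries left out. The control tissues gave 2 to 3. With the mouse as a replicate block the difference between tissues gave 0 members and the control tissues 2 in place of 3. Of the nucleases and editors in cortex, 2 were called and 1 with upper quartile normalisation, which lost Adarb1 (adjusted p = 0.053). Trim25, at a main value of 0.23 in cortex and 0.17 in hippocampus, turned to -0.01 and -0.18 with no batch term, and in hippocampus to -0.22 in batch 2 alone, -0.08 after thinning and -0.09 without the libraries of high Rorb, and was 1.50 in batch 1 alone (adjusted p = 0.144). Adar in hippocampus turned from -0.05 to 0.06 with limma-voom and 0.20 in batch 1 alone, and ranged from -0.34 to 0.12 when 1 library was left out. The causes were not tested. Counting the fits that tested the gene, 16 of the 21 cortical and 3 of the 30 hippocampal calls held in all of them, and 20 and 21 held in all that left out 1 library. In cortex Bst2 and Xaf1 passed the filter in only 6 of the 11 fits without 1 library, and Gbp3 in 9. Depth limits the low members: in cortex 18 of the 47 were below the filter. Fitted without it, Rsad2 was at 0.85, Ifih1 at 0.98, Parp9 at 0.49, Irf1 at 0.59 and Eif2ak2 at 1.27 in cortex. Rnf213 was at 0.36, Parp14 at 1.11, Oas2 at 0.53 and Herc6 at -0.48, and none of these was called. In hippocampus Parp14 at 1.05 and Oas2 at 1.21 were not called either.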

Other observations

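The counts of Ifna16, the interferon alpha gene with the most counts of the 18 ligands, came from 4 of the 21 libraries and no other library held any. These were the cortex of GA-Camk2a mouse 41 with 21 counts, and the hippocampus of control mouse 11 with 16, of GA-Camk2a mouse 16 with 18 and of GA-Camk2a mouse 30 with 12. The same 4 libraries had the highest Rorb, a gene of the thalamus and of cortical layer neurons, at 612, 1455, 5303 and 4414 CPM, against 86.6 to 214 CPM in the other 17. Mouse 16 held no Ifna16 in its cortex library, where the 47 members summed to 1289 CPM. This overlap was seen in the data and was not tested.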
